A study of Mus musculus with 41 samples.

Results

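Of 90674 peaks of accessible chromatin called in mouse microglia taken directly from the brain, 14572 (16.1%) overlapped neither a peak called after 7 d in culture nor a peak of the transcription factor PU.1, and these ex vivo-only peaks without PU.1 are described here. They were chosen from the deposited peak intervals alone: a peak of the ex vivo ATAC list was taken when not 1 bp of it lay in a peak of the 7 d ATAC list or of the ex vivo PU.1 list. Their absence from those lists is therefore how they were picked and is not a result. The remaining peaks fell into 8064 ex vivo-only peaks with PU.1, 28484 peaks that were also called at 7 d and lacked PU.1, and 39554 that were also called at 7 d and had PU.1.

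The cells were live CD11b+ CD45Low microglia sorted from C57Bl6 mice. Cultured cells grew in DMEM/F12 medium containing 5% serum and IL-34, which signals through the CSF1 receptor, and were harvested at 6 h, 24 h or 7 d, and 1 group of 7 d cultures also received the cytokine TGFβ. Poly(A) RNA was sequenced from 2 libraries at 6 h, 3 at 24 h, 5 at 7 d, 2 at 7 d with TGFβ, 5 of sorted ex vivo microglia and 4 of brain lysate, which was not sorted. Accessibility and the histone mark H3K27ac were profiled at 7 d and ex vivo, and H3K4me2 and PU.1 ex vivo only, with 2 libraries each that the authors pooled into 1 peak list per assay and condition. By its label, 24 h replicate 2 was harvested at 22 h, and 7 d ATAC replicate 2 at 8 d. The labels do not tie replicates to separate animals, and p-values therefore reflect only how much these libraries differ. Shares of peaks have no replicate and no test, and their 95% Wilson intervals cover counting error only.

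ATAC-seq marks open chromatin by where the transposase Tn5 can insert its adapters. PU.1 is an ETS-family factor that macrophages and microglia need and that binds many of their enhancers together with other factors. H3K4me2 lies at both enhancers and promoters, whether active or poised, and H3K27ac lies at those that are active.

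The sequences shown are the parts of members that lie in RefSeq promoter windows of GRCm38.p6, the assembly behind mm10. Each window runs from 250 bases before a gene's start to 50 after it. The genes are those with a member at the promoter and the largest changes in RNA at 7 d, 4 that fell (Crybb1, Klk8, Gprasp2 and Il1a) and 3 that rose (Flrt2, Capg and Pla2g7), and their RNA is given further on. Each stretch is written 5′ to 3′ along the gene, with capitals for matches, on either strand, to 10 motifs that are spelled out in the paragraph after the sequences.
Crybb1: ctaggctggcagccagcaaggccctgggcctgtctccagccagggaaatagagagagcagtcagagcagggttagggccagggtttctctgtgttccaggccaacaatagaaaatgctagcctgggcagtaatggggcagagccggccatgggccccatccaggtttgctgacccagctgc
Klk8: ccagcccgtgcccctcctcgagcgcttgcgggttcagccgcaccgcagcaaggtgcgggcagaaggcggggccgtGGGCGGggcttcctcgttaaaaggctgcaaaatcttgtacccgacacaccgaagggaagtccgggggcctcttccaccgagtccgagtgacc
Gprasp2: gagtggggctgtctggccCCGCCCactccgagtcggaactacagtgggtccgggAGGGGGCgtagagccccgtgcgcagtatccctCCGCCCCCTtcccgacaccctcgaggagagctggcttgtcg
Il1a: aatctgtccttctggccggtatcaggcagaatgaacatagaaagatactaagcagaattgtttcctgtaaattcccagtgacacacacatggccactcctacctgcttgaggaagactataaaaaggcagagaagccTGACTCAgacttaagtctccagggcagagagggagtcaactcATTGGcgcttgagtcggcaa
Flrt2: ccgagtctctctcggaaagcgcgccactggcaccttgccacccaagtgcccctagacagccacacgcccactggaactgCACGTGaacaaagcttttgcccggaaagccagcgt
Capg: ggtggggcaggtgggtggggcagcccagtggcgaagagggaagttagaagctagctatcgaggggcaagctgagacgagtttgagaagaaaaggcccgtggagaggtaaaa
Pla2g7: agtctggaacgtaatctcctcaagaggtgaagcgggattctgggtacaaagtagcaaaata
The Crybb1 stretch is chr5:112255570-112255750 on the plus strand, 250 to 70 bases before the start, and held none of the 10. The Klk8 stretch, chr7:43797460-43797626 on the plus strand, spans the start and held 1 GC box. The Gprasp2 stretch, chrX:135838957-135839083 on the plus strand, also spans the start and held 2 GC boxes (CCGCCC on this strand) and 2 matches to the CTCF core, of which 1 pair overlaps in a single run of capitals. In the Il1a stretch, chr2:129309923-129310121 on the minus strand, the capitals are an AP-1 match (TGACTCA) and a CCAAT box read on the other strand (ATTGG). The Flrt2 stretch, chr12:95691976-95692089 on the plus strand, held 1 CACGTG. The Capg stretch, chr6:72549397-72549507, and the Pla2g7 stretch, chr17:43568201-43568261, both on the plus strand, held none.

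Members overlapped 735 of 32817 distinct promoter windows of RefSeq on 19 chromosomes, and in 610 of these no other class of peak was present. The 610 windows had a median GC content of 60.3% and a median of 16 CpG, against 56.7% and 14 in the 283 windows with ex vivo-only PU.1 peaks alone, 64.0% and 24 in the 4417 with peaks also called at 7 d without PU.1, and 48.7% and 4 in the 20790 with no ATAC peak. The ETS core AGGAAGT, searched on both strands like every motif here, was in 5.25% of the 610 (95% interval 3.74% to 7.31%), in 17.7% of the ex vivo-only PU.1 windows, in 3.80% and 14.9% of windows with peaks also called at 7 d without and with PU.1, and in 9.35% of all windows. The GC box GGGCGG was in 54.6% of the 610, in 48.1% of the ex vivo-only PU.1 windows, in 71.6% and 64.2% of windows with peaks also called at 7 d without and with PU.1, and in 18.1% of windows with no ATAC peak (35.6% of all windows). The CTCF core AGGGGGC was in 19.7% of the 610, and in the same order of the other windows in 15.2%, 19.4%, 15.1% and 6.95% (10.6% of all). The CCAAT box (CCAAT) was in 29.3% of the 610, and in 26.1%, 39.7%, 41.0% and 36.4% of the others (37.4% of all). AP-1 (TGANTCA) was in 4.59% of the 610, and in 6.71%, 4.41%, 4.63% and 9.72% of the others (7.81% of all). CACGTG was in 9.51% of the 610, and in 11.7%, 11.5%, 10.5% and 5.03% of the others (7.15% of all). The other 4 motifs, in the 610 against all windows, were TGACGTCA (the cyclic AMP response element) in 1.64% against 1.79%, GCGCATGC (NRF1) in 2.62% against 2.71%, CTAAAAATA (MEF2) in 0.656% against 0.518% and TGTGGT (RUNX) in 14.3% against 16.8%. GC box and CTCF core matches can overlap, as in Gprasp2. A match says only that the letters are there.

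Members were mostly weak peaks. Of the members, 14567 were 201 bp wide, and the order of the list, which is taken here to stand for peak strength since the files hold no score, put their median at position 70116.5 of 90674. The medians were 59040.5 for ex vivo-only peaks with PU.1, 50141.5 for peaks also called at 7 d without PU.1 and 28656.5 for those with PU.1. With the list divided into quintiles, from the strongest to the weakest 406, 1170, 2327, 4022 and 6647 peaks were members, or 2.24%, 6.45%, 12.8%, 22.2% and 36.7% of each quintile. The 7 d list held 112977 peaks from 15.2 M tags, a peak needed 11 tags and 37.1% of tags lay in peaks. The ex vivo list came from 23.8 M tags, a peak needed 13 and 25.9% of tags lay in peaks. A peak thus needed 7.23 tags per 10 M at 7 d and 5.46 ex vivo, and the part of this difference in the members' absence from the 7 d list was not tested.

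Many members stood beside a peak of the lists that defined them. Just inside the rule, 499 members (3.42%) lay within 50 bp of a 7 d ATAC peak and 393 (2.70%) within 50 bp of a PU.1 peak. Just outside it, 201 peaks overlapped the 7 d list alone by 25 bp or less, and 105 the PU.1 list alone. Within 500 bp, 3995 members (27.4%) had a 7 d ATAC peak, 3025 (20.8%) a PU.1 peak and 4790 (32.9%) either one. The other 9782 members (67.1%) had neither within 500 bp and are called isolated members below. Ex vivo-only peaks with PU.1 had a 7 d ATAC peak within 500 bp in 27.3% of cases, nearly the share of members.

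Over the whole list, members carried fewer histone marks than the other classes. H3K4me2 overlapped 37.6% of members (36.8% to 38.4%), 47.1% of ex vivo-only peaks with PU.1, and 46.2% and 59.0% of peaks also called at 7 d without and with PU.1. Ex vivo H3K27ac overlapped 24.1% of members (3512 peaks, 23.4% to 24.8%), and 40.3%, 30.9% and 54.9% of the other classes in the same order. H3K4me2 without H3K27ac ex vivo was found at 2694 members (18.5%). No H3K4me2 and no H3K27ac at either time was found at 8206 members (56.3%), against 40.9%, 46.2% and 25.8% of the others.

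H3K27ac was partly kept after culture at sites whose ATAC peak was not called there. Of the 3512 members with H3K27ac ex vivo, 2114 (60.2%, 58.6% to 61.8%) also overlapped H3K27ac at 7 d, and 1398 did not. The kept share was 51.9% for ex vivo-only peaks with PU.1, and 76.5% and 71.7% for peaks also called at 7 d without and with PU.1. A further 402 members had H3K27ac at 7 d and none ex vivo.

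The marks varied with position in the list. From the strongest to the weakest quintile, ex vivo H3K27ac overlapped 86.7%, 70.3%, 40.8%, 19.6% and 9.04% of members, and H3K4me2 overlapped 79.1%, 70.2%, 52.0%, 36.5% and 24.9%. Over the same quintiles the H3K27ac share was 86.9%, 66.1%, 48.6%, 31.0% and 20.8% for ex vivo-only peaks with PU.1. It was 79.7%, 44.4%, 26.1%, 16.3% and 8.64% for peaks also called at 7 d without PU.1. For those with PU.1 it was 79.2%, 55.0%, 41.8%, 31.1% and 21.6%. That was below the member share in the strongest quintile and the next, and above it in the others. Within each quintile, then, a larger share of members than of PU.1-free peaks also called at 7 d was acetylated. In the weakest quintile the intervals overlapped (8.38% to 9.75% against 7.96% to 9.38%). Over the whole list the member share was the smaller. In the quintile after the strongest, H3K4me2 overlapped 70.2% of members and 65.2% of ex vivo-only peaks with PU.1. Peaks also called at 7 d had it in 58.2% without and 60.7% with PU.1. In the weakest quintile these shares were 24.9%, 32.0%, 25.4% and 35.4% in the same order.

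**Figure D1:**
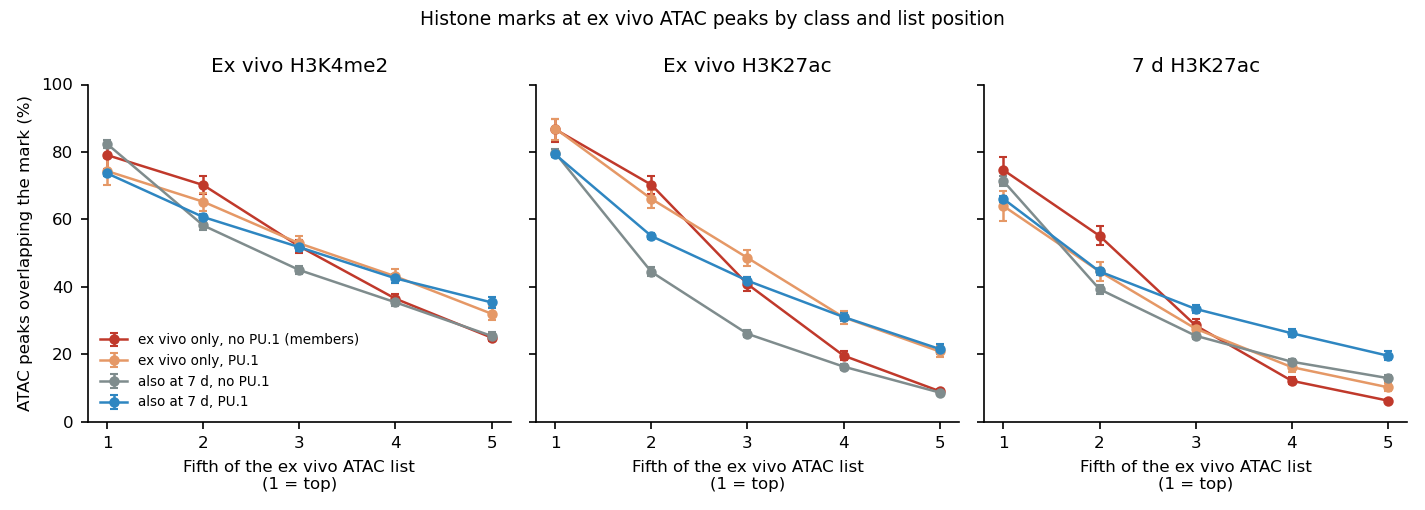
Percent of peaks overlapping each mark (y axis) by quintile of the ex vivo ATAC list, strongest first (x axis), for members and the 3 other classes, with 95% Wilson intervals. Ex vivo H3K27ac on members falls from 86.7% in the strongest quintile to 9.04% in the weakest.

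The marks also varied with what lay nearby. Isolated members overlapped H3K4me2 in 22.0%, ex vivo H3K27ac in 10.6% and 7 d H3K27ac in 5.51% of cases. The 2230 members with both a 7 d ATAC and a PU.1 peak within 500 bp overlapped them in 76.3%, 68.3% and 54.5%. With only a 7 d ATAC peak near (1765 members) the shares were 66.9%, 36% and 34.1%, and with only a PU.1 peak near (795 members) 55.1%, 39.9% and 20.0%. Of members acetylated ex vivo, the mark was kept at 7 d in 40.3% of isolated ones, 43.5% of those near PU.1 alone, 73.1% of those near a 7 d ATAC peak alone and 71.9% of those near both. Ex vivo-only peaks with PU.1 varied alike. Ex vivo H3K27ac overlapped 69.5% of those within 500 bp of a 7 d ATAC peak and 29.3% of those farther away. The mark was kept in 72.4% and 33.5%. By the same split, members had H3K27ac in 54.0% and 12.8% and kept it in 72.2% and 41.0%. Isolated members also stood lower in the list, with a median position of 74056.5.

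**Figure D2:**
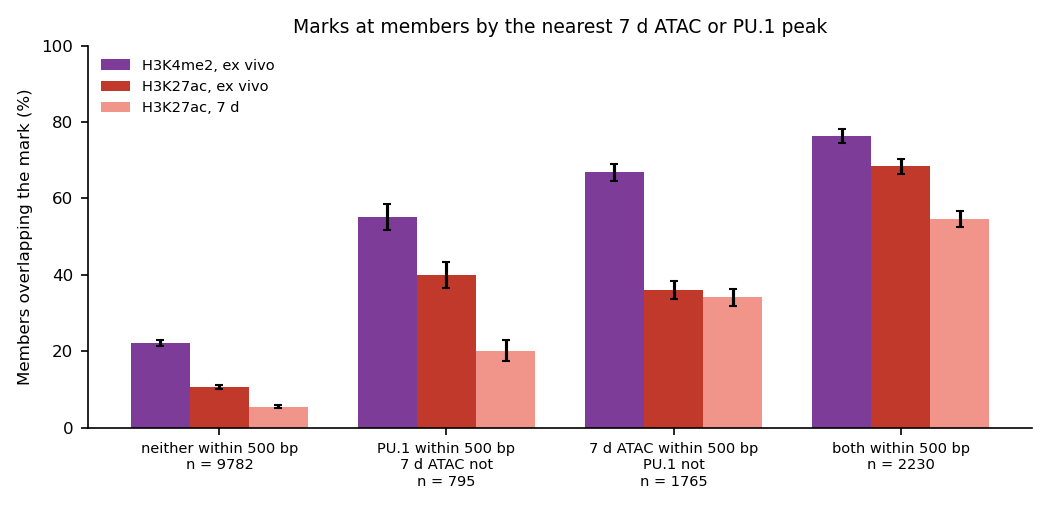
Percent of members overlapping each mark (y axis) by whether a 7 d ATAC or an ex vivo PU.1 peak lies within 500 bp (x axis), with 95% Wilson intervals. Members with both neighbours carry ex vivo H3K27ac in 68.3% and those with neither in 10.6%.

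Most members lay away from promoters. A RefSeq start lay within 1 kb of 2046 of the 13939 members on annotated chromosomes (14.7%), against 13.1% of ex vivo-only peaks with PU.1, and 22.3% and 20.1% of peaks also called at 7 d without and with PU.1. From the strongest to the weakest quintile the member share was 44.5%, 33.2%, 19.5%, 12.1% and 9.63%. For peaks also called at 7 d it was 56.9%, 28.5%, 18.2%, 13.4% and 8.93% without PU.1. With PU.1 it was 32.3%, 18.2%, 13.6%, 10.1% and 7.51%. For ex vivo-only peaks with PU.1 it was 33.7%, 23.4%, 13.5%, 9.81% and 7.00%. Within each quintile, then, the member share was above those of both classes with PU.1. The median member was 17.4 kb from a start, and 58.8% lay in a gene body. Gene 3′ ends were within 1 kb of 3.83% of members and 3.96% of ex vivo-only PU.1 peaks. The share of a chromosome's peaks that were members ran between 11.7% on chromosome 11 and 18.1% on chromosomes 6 and X among the autosomes and X, and on chromosome Y 10 of 33 peaks were members.

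A small group of strong members had no mark at all. There were 39 of them in the strongest quintile, of which 9 lay on unplaced scaffolds and 11 in the first 3.3 Mb of a chromosome. Those 2 kinds of place held 110 members (0.755%) of 14572 and 271 peaks (0.299%) of 90674. Of the other 19, 4 lay within 1 kb of a gene's 3′ end. A pair stood at the 3′ end of Btg2, an antiproliferative gene of the immediate-early class, at chr1:134074696-134074896 (position 10677) and chr1:134074318-134074518 (position 13865). The third lay 665 bp past the end of Hfe, a regulator of iron uptake, at chr13:23701269-23701469 (position 12475). The fourth stood past the 3′ end of Hspa1a, the inducible HSP70 chaperone, at chr17:34968366-34968566 (position 15261).

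Members seldom clustered. Linking members that lay within 2 kb of each other gave 799 runs of at least 2, with 1670 members (11.5%), and the longest held 6. At Nfe2l2, the oxidative stress factor NRF2, 3 members stood in chr2:75703431-75705473 at positions 8757 to 12259, and all 3 had H3K27ac. Of the 24520 ex vivo H3K27ac regions, 3224 (13.1%) held a member. Regions over 10 kb held one in 227 of 524 cases (43.3%), but per 100 kb they had 3.42 members against 6.09 in shorter regions. No region held more than 4 members, a number reached in the 15.3 kb region at Pik3r1, a PI3-kinase regulatory subunit. In 323 of the 7897 regions without H3K27ac at 7 d, members were the only ATAC peaks.

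To ask what the RNA of nearby genes did, each member was assigned the gene body closest to it, up to 100 kb away. This gave 13677 members a gene and 7424 genes a member, and 5298 of these genes were among the 13840 tested (38.3%). RNA libraries held 11.6 to 28.8 M counts, levels are CPM (counts scaled to the same total of 1 M per library, where M is 1e6), and p-values are from edgeR's quasi-likelihood test adjusted over all genes, with calls at 0.05. At 7 d against ex vivo, 35.7% of all genes tested were lower and 34.8% higher (median log2 change -0.02). Of genes with a member, 2049 (38.7%) were lower and 1816 (34.3%) higher, with a median of -0.08. The members' genes as a whole were thus near the background. Of the 2967 with no ex vivo-only PU.1 peak, 34.7% were lower and 35.8% higher. Of the 2331 that also had such a peak, 43.7% were lower and 32.4% higher. Genes with an ex vivo-only PU.1 peak and no member were lower in 37.1% and higher in 32.8% of 1553. The share of lower genes was 36%, 39.8%, 42.8% and 47.5% for genes with 1, 2, 3 or 4, and at least 5 members. The median gene body was also longer, 156 kb for at least 5 members against 21.1 kb for all genes tested. The median ex vivo level was higher too, 80.4 against 18 CPM. The part of length, level and ex vivo-only PU.1 peaks in these shares was not tested.

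The counts differed with the marks of the members. Of 979 tested genes with a member whose H3K27ac was present ex vivo and absent at 7 d, 559 (57.1%) were lower at 7 d and 201 (20.5%) higher, with a median log2 change of -0.66. The 1898 tested genes whose members had no mark were lower in 33.1% and higher in 36.6%. Where the member's H3K27ac was kept, 38.1% of 1671 genes were lower and 36.8% higher. Where it was present at 7 d and absent ex vivo, 22.4% of 294 genes were lower and 57.8% higher, with a median of 0.70. A gene with several members can be in more than 1 of the lost, kept and gained groups. Genes with an isolated member that lost H3K27ac were lower in 61.3% of 478 cases. The loss of H3K27ac went with similar counts in the other classes, where lower genes made up 56.0% for ex vivo-only peaks with PU.1, 53.0% for peaks also called at 7 d without PU.1 and 49.1% for those with PU.1. A gene can have peaks of several classes: 2858 genes had both a member and an ex vivo-only PU.1 peak, which is 38.5% of the genes of members and 58.6% of those of the PU.1 peaks. Among genes with a member that lost H3K27ac and no ex vivo-only PU.1 peak, 51.2% of 371 were lower.

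**Figure D3:**
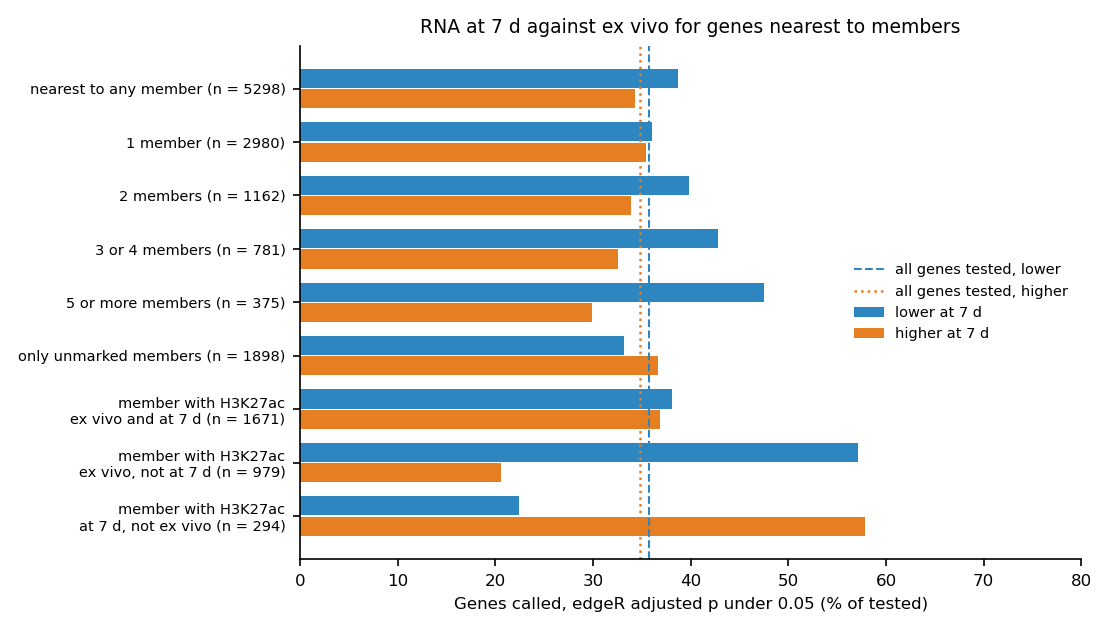
Percent of tested genes lower and higher at 7 d against ex vivo (edgeR adjusted p under 0.05) by the number and marks of their members, with lines for the shares among all 13840 genes tested. Genes whose member lost H3K27ac are lower in 57.1%, and genes whose member gained it are higher in 57.8%.

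In the other comparisons the members' genes were again set beside all genes tested. At 6 h against ex vivo 38.0% were lower and 33.9% higher, beside 36.8% and 31.2% of all genes tested. At 24 h against ex vivo 38.5% were lower and 29.4% higher, beside 33.1% and 29.6%. These comparisons share the ex vivo libraries with that at 7 d. With TGFβ against 7 d without it, 8.38% were lower and 12.8% higher, beside 6.52% and 9.57%. Without TGFβ replicate 1, 4.13% of the members' genes and 2.83% of all genes tested were lower, and without replicate 2, 3.57% and 2.58%, with the lone TGFβ library assumed to vary like the other groups. In ex vivo microglia against lysate, 44.3% of 5938 tested were lower and 40.9% higher, beside 43.5% and 39.1%. The TGFβ comparison shares the 7 d libraries. Genes whose member lost H3K27ac were lower in 49.3% at 6 h and 57.1% at 24 h, higher in 23.7% with TGFβ (15.9% without TGFβ replicate 1 and 18.6% without replicate 2), and higher in 59.7% in ex vivo microglia against lysate.

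Homeostatic microglial genes, the signature of microglia in the undisturbed brain, often had a member nearby. Of 25 listed genes in the table, 17 had 29 members in all, and all 17 were lower at 7 d (median log2 change -4.41), as were 24 of the whole 25 (-3.92). With TGFβ, 14 of the 17 were higher and 1 lower. The list was chosen with these results known, so its direction is not independent evidence. The summed level of the 25 genes was 10305 to 15336 CPM at 7 d and 64232 to 85248 CPM ex vivo, against 1607 to 1676 CPM in lysate. In these bulk samples, fewer cells of a type and less RNA per cell cannot be told apart.

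Tmem119, a transmembrane protein used to mark microglia, had 2 members beside its gene body, chr5:113793288-113793488 and chr5:113792730-113792930, both with H3K27ac ex vivo and not at 7 d. Its level was 26.5, 15.1, 18.1, 9.75 and 14.1 CPM in the 7 d libraries, against 2758, 2616, 3554, 2532 and 3405 CPM ex vivo (log2 change ± standard error -7.40 ± 0.34, edgeR adjusted p = 1.8e-11). With TGFβ it was 713 and 771 CPM, above all 7 d libraries without it (5.55 ± 0.34, edgeR adjusted p = 9.9e-09). No group overlapped another in these comparisons, which for 7 d against ex vivo was also required of genes named for large falls.

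Adgrg1, an adhesion G protein-coupled receptor also known as GPR56, had 3 members inside its gene, the strongest at chr8:94997060-94997260 (position 12032). All 3 had H3K4me2 and H3K27ac ex vivo and no H3K27ac at 7 d. The 7 d libraries held 14.2, 15.2, 21.3, 10.6 and 9.18 CPM, against 1444, 1329, 1464, 1773 and 1729 CPM ex vivo (-6.73 ± 0.30, edgeR adjusted p = 1.3e-11). TGFβ cultures held 88.7 and 33.0 CPM, higher than 7 d but far from ex vivo (2.23 ± 0.30, edgeR adjusted p = 4.8e-05).

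**Figure D4:**
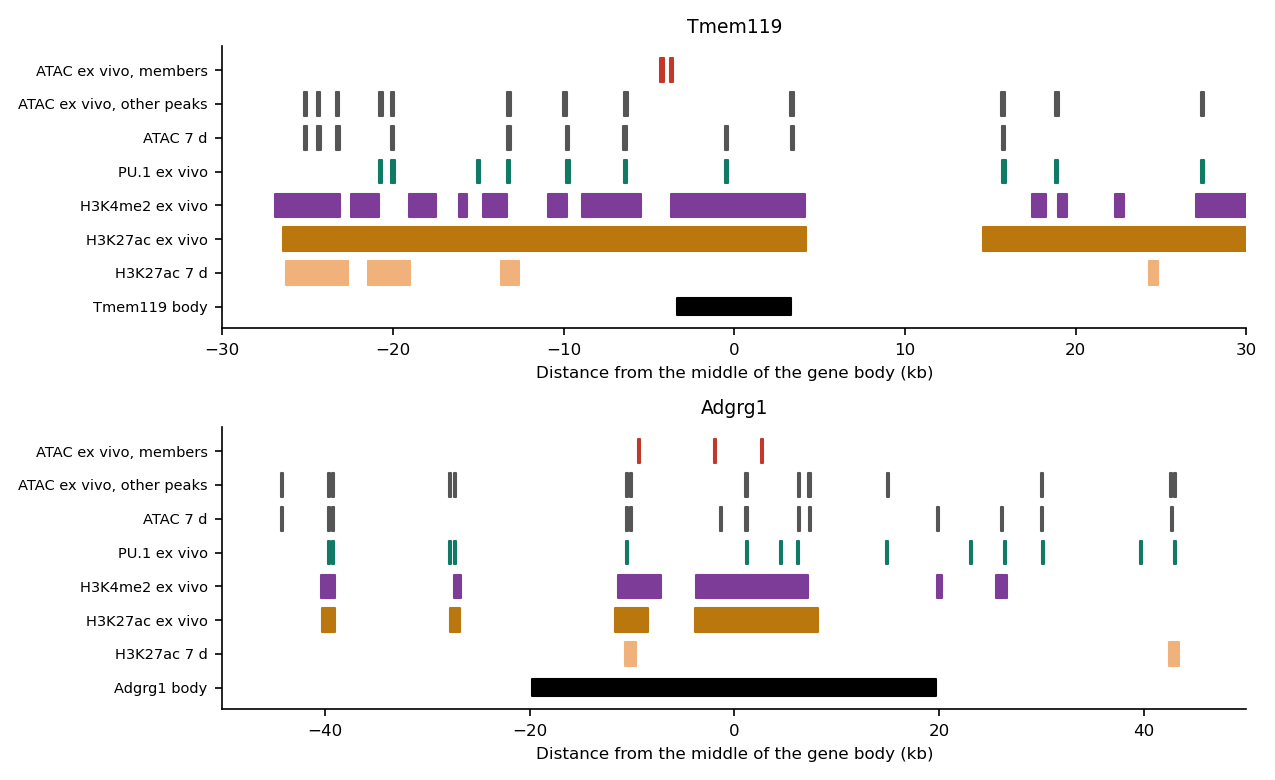
Called peaks in each list around Tmem119 (30 kb to either side) and Adgrg1 (50 kb), as distance in kb from the middle of the gene body (x axis), with members on their own row. There are 2 members at Tmem119 and 3 at Adgrg1, and all lie in ex vivo H3K27ac regions with no 7 d H3K27ac over them.

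Slco2b1, an organic anion transporter, had 2 members in its gene, chr7:99704936-99705136 and chr7:99707322-99707522, with the same loss of H3K27ac. It was at 7.07, 26.5, 37.1, 1.44 and 4.88 CPM at 7 d, against 2846, 2647, 2842, 3450 and 3492 CPM ex vivo (-7.60 ± 0.79, edgeR adjusted p = 6.3e-07). With TGFβ it was at 389 and 151 CPM. Its 7 d libraries spread widely and still lay far below every ex vivo library.

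Sall1, a zinc-finger repressor that maintains microglial identity, had 3 members, 1 of them at its start. It was at 170, 85.8, 111, 159 and 169 CPM at 7 d, against 1595, 2112, 2045, 2169 and 2239 CPM ex vivo (-3.79 ± 0.25, edgeR adjusted p = 1.0e-09), and at 698 and 310 CPM with TGFβ. Bin1, a membrane-curving adaptor, fell less, to 216 to 281 CPM at 7 d against 631 to 906 CPM ex vivo (-1.60 ± 0.13). Tgfbr1, the type I TGFβ receptor, fell to 311 to 638 CPM at 7 d against 2348 to 4271 CPM ex vivo (-2.69 ± 0.25), and with TGFβ stood at 1561 and 1461 CPM.

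Genes with a member within 1 kb of a start were lower at 7 d in 36.7% of 1440 tested and higher in 36.4%, beside 35.7% and 34.8% of all genes tested. The genes named here had a member in the promoter window itself. They have the largest falls of that narrower set, with at least 20 CPM in the higher group. Sparc, a secreted matrix glycoprotein, had a member 38 bp from a start, chr11:55419841-55420041, acetylated ex vivo only. It was at 44.6, 62.5, 80.9, 30.1 and 42.0 CPM at 7 d, against 3396, 3194, 3660, 2720 and 3121 CPM ex vivo (-5.90 ± 0.34, edgeR adjusted p = 2.1e-10). With TGFβ it was at 2933 and 1585 CPM, the first of which lay within the ex vivo range. Crybb1, a lens beta-crystallin that microglia also express, was at 0.161 to 1.15 CPM at 7 d against 92.3 to 208 CPM ex vivo (-8.52 ± 0.59). Klk8, a secreted serine protease, was at 0 to 0.269 CPM at 7 d against 12.5 to 29.2 CPM ex vivo (-7.50 ± 0.59). Gprasp2, a sorting protein of G protein-coupled receptors, was at 0.12 to 1.11 CPM at 7 d against 35.2 to 46.4 CPM ex vivo (-6.62 ± 0.51). The cytokine gene Il1a moved in both directions: its level was 101 to 305 CPM ex vivo, 760 and 615 CPM at 6 h, 59.7 to 89.3 CPM at 24 h and 1.35 to 2.69 CPM at 7 d. Its change was 2.32 ± 0.39 at 6 h (edgeR adjusted p = 7.6e-05) and -6.53 ± 0.42 at 7 d (edgeR adjusted p = 1.7e-09).

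Genes with at least 2 members and a large fall also included membrane proteins. Upk1b, a uroplakin of the tetraspanin family, was at 0 to 0.256 CPM at 7 d against 90.4 to 198 CPM ex vivo (-9.94 ± 0.38). Spns2, which exports sphingosine 1-phosphate, was at 0.0357 to 0.423 CPM at 7 d against 55.4 to 108 CPM ex vivo (-8.31 ± 0.38), and at 26.8 and 14.5 CPM with TGFβ. Tspan18, a tetraspanin, changed by -8.49 ± 0.26, Cdh23, a cadherin of hair-cell tip links, by -7.49 ± 0.35, and Tlr5, the flagellin receptor, by -7.22 ± 0.41. Genes named for a large fall had to show no overlap between the 7 d and ex vivo libraries, so their separation is not a result.

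Other genes with members rose at 7 d. Lpl, lipoprotein lipase, had 3 members, 2 of which carried H3K27ac at 7 d and none ex vivo. It was at 9043, 10594, 10934, 10861 and 10210 CPM at 7 d, against 38.3, 42.6, 52.7, 19.3 and 13 CPM ex vivo (8.35 ± 0.36, edgeR adjusted p = 7.0e-12), and at 725 and 934 CPM with TGFβ. Igf1, insulin-like growth factor 1, had 4 members with the same pattern of H3K27ac at 2 of them. It was at 1444, 1228, 1417, 975 and 1841 CPM at 7 d, against 3.60, 2.65, 6.21, 1.05 and 0.802 CPM ex vivo (8.96 ± 0.48, edgeR adjusted p = 2.0e-10). Both genes were thus high where their members' ATAC peaks were not called.

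Emp1, Flrt2, Arhgap10 and Plxna2 rose by over 7 on the log2 scale. Emp1, an epithelial membrane protein, was at 161 to 334 CPM at 7 d against 0 to 0.685 CPM ex vivo (9.85 ± 0.45), and at 5.02 and 9.78 CPM with TGFβ. Flrt2, a leucine-rich repeat membrane protein that guides axons, was at 41.9 to 134 CPM at 7 d against 0 to 0.502 CPM ex vivo (9.10 ± 0.55). Arhgap10, a GTPase-activating protein, rose by 7.85 ± 0.24. Capg, an actin filament capper, had an acetylated promoter member at both times and was at 559 to 790 CPM at 7 d against 10.9 to 17.8 CPM ex vivo (5.64 ± 0.16). Pla2g7, which hydrolyses platelet-activating factor, rose by 5.57 ± 0.58, and Plxna2, a semaphorin receptor with 1 of its 2 members acetylated ex vivo, by 7.72 ± 0.59.

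**Figure D5:**
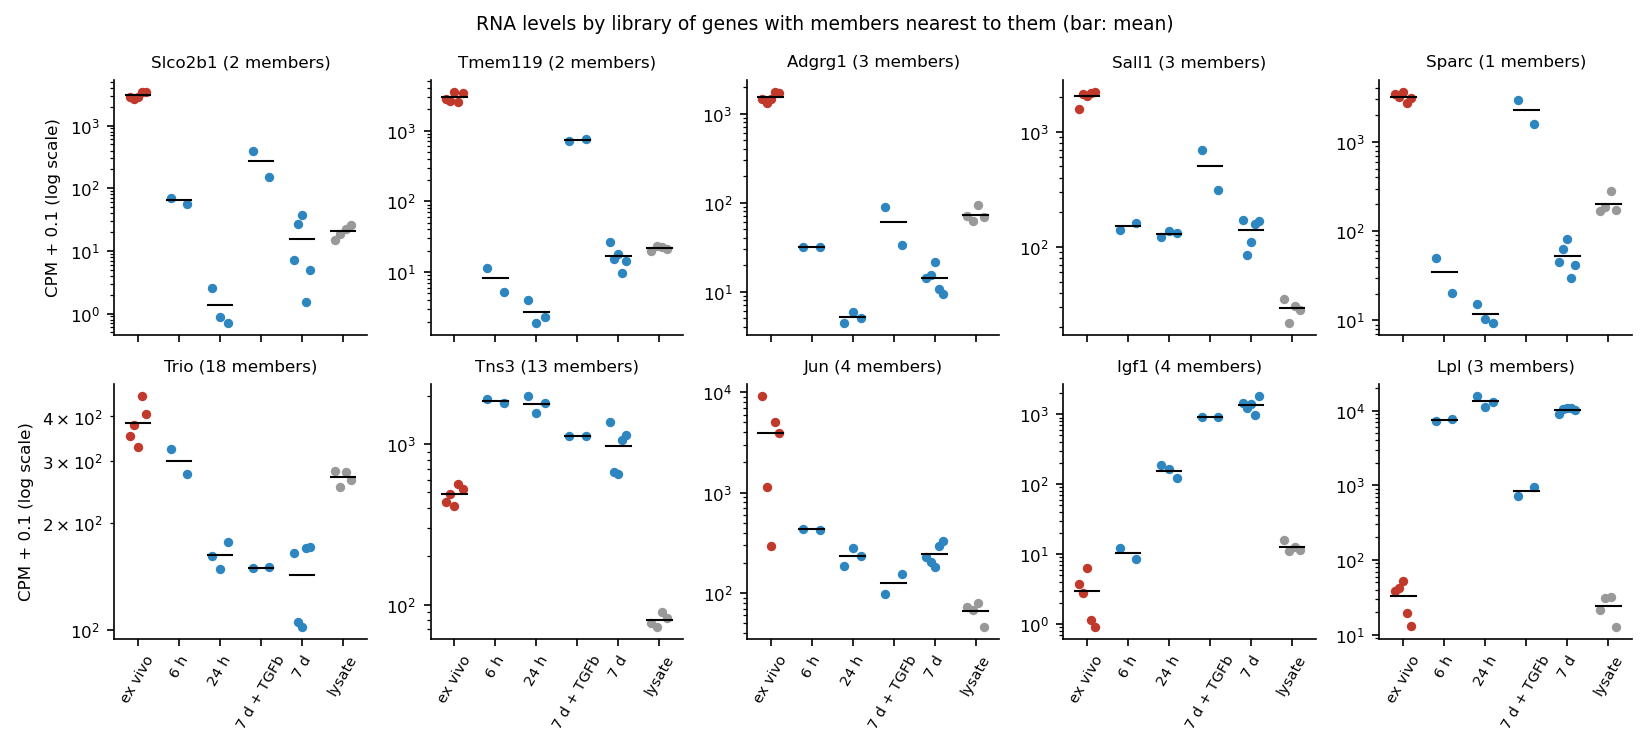
Level as CPM + 0.1 on a log axis (y axis) of 10 genes near members in each library by group (x axis), each point 1 library and each bar a mean. Tmem119, Adgrg1 and Slco2b1 lie far lower at 7 d than ex vivo and partly higher again with TGFβ, while Igf1 and Lpl lie far higher at 7 d.

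Immediate-early genes, which cells induce within minutes of a stimulus, had members near 12 of 24, with 22 members. Of these 12, 9 were lower at 7 d, as were 18 of the 24. Jun, a subunit of AP-1, had 4 members and was at 231, 202, 183, 292 and 328 CPM at 7 d, against 9206, 1132, 294, 5108 and 3890 CPM ex vivo (-3.96 ± 0.67, edgeR adjusted p = 8.7e-05). Fos, its partner, was at 96.9, 57.7, 54.5, 130 and 73.8 CPM at 7 d, against 5369, 566, 26.3, 2118 and 2010 CPM ex vivo (-4.58 ± 0.90, edgeR adjusted p = 0.00035). In both genes ex vivo replicate 3 fell within or below the 7 d range. Btg2, with its unmarked 3′ members, was at 22.9 to 38.0 CPM at 7 d against 206 to 2542 CPM ex vivo (-5.32 ± 0.61), and Ier5, an immediate-early response gene, changed by -2.34 ± 0.40. Hspa1a was at 0.219 to 0.442 CPM at 7 d, against 720, 77.6, 5.89, 403 and 559 CPM ex vivo (-10.02 ± 1.16). The summed level of the 24 genes was 1743 to 2126 CPM at 7 d, against 46692, 5425, 1754, 27422 and 20416 CPM in ex vivo replicates 1 to 5, so the ex vivo libraries differed among themselves. The part of this spread in the ex vivo-only peaks was not tested.

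Microglial transcription factors carried many members, 114 near 25 of 27 genes. Of the 25, 18 were lower and 3 higher at 7 d, with a median of -0.88. Tcf4, a basic helix-loop-helix factor with 15 members, was at 198 to 282 CPM at 7 d against 282 to 427 CPM ex vivo (-0.41 ± 0.14, edgeR adjusted p = 0.014). Foxp1, a forkhead repressor with 13, was at 44.3 to 73.3 CPM at 7 d against 70.8 to 95.4 CPM ex vivo (-0.42 ± 0.14, edgeR adjusted p = 0.013). Mef2c, a MADS-box factor with 10, did not pass the test (-0.05 ± 0.16, edgeR adjusted p = 0.79), and with TGFβ it fell to 280 and 223 CPM against 427 to 689 CPM at 7 d without it (-1.04 ± 0.22). Rreb1, a zinc-finger factor with 8, changed by -0.73 ± 0.17.

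In the TGFβ pathway, where ligands bind type II and type I receptors that activate SMAD proteins, 23 of 30 genes had 46 members, and of 22 tested 14 were lower and 4 higher at 7 d. Tgfbr2, the type II receptor, had 7 members, 5 of them acetylated ex vivo, and was at 665 to 986 CPM at 7 d against 888 to 1131 CPM ex vivo (-0.35 ± 0.12, edgeR adjusted p = 0.013). Smad7, an inhibitor that the pathway itself induces, was at 38.7 to 62.9 CPM at 7 d against 163 to 275 CPM ex vivo (-2.03 ± 0.16), and at 92.1 and 104 CPM with TGFβ. Itgav, an integrin chain that can release latent TGFβ, was higher at 7 d (0.66 ± 0.14). Smad2, a receptor-activated SMAD, did not pass the test (0.18 ± 0.12, edgeR adjusted p = 0.19).

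Regulators of small GTPases and the cytoskeleton had 111 members near 24 of 33 genes, and 13 of the 24 were lower and 7 higher at 7 d. Tiam1, an activator of Rac with 12 members, was at 2.23 to 7.35 CPM at 7 d against 37.0 to 44.0 CPM ex vivo (-3.01 ± 0.23). Dock4, another activator of Rac with 9, was at 120 to 213 CPM at 7 d against 358 to 547 CPM ex vivo (-1.28 ± 0.19). Arhgap24, a Rac-directed GTPase-activating protein with 10, rose to 21.8 to 38.5 CPM at 7 d against 8.51 to 15.4 CPM ex vivo (1.53 ± 0.24). Fmnl2, an actin-nucleating formin with 10, changed by 0.54 ± 0.20 (edgeR adjusted p = 0.023), a call lost without any one of 7 d replicates 1 and 5 or ex vivo replicates 3, 4 and 5 (edgeR adjusted p 0.0513 to 0.0713), and not made by limma on log2 TPM (limma adjusted p = 0.178).

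Of the 10 genes with the most members, 6 were lower at 7 d, 2 higher and 2 did not pass the test. Fbxl17, an F-box protein of ubiquitin ligases, had 23 members but 1 with H3K27ac, and its RNA was 50.6 to 62.3 CPM at 7 d against 62.8 to 81.0 CPM ex vivo (-0.27 ± 0.11, edgeR adjusted p = 0.039). That call was lost without any one of 7 d replicates 2, 3 and 4 or ex vivo replicates 2, 4 and 5 (edgeR adjusted p 0.0536 to 0.104). Trio, a guanine nucleotide exchange factor, had 18 members, 10 of them acetylated ex vivo. It was at 164, 105, 102, 170 and 172 CPM at 7 d, against 353, 378, 329, 457 and 406 CPM ex vivo (-1.36 ± 0.17, edgeR adjusted p = 2.7e-06). Tns3, a tensin of focal adhesions, had 13 members, 10 acetylated ex vivo and 10 at 7 d, and was at 1368, 671, 649, 1059 and 1143 CPM at 7 d, against 437, 491, 412, 563 and 527 CPM ex vivo (1.08 ± 0.20, edgeR adjusted p = 0.00016). The polarity gene Pard3b, with 17 members and none acetylated, changed by -1.56 ± 0.46, the scaffold gene Magi1 with 13 by -1.11 ± 0.12, and the RNA-binding protein gene Snd1 with 13 by 0.43 ± 0.13, a call that limma on log2 TPM did not make (limma adjusted p = 0.201). The phosphatase gene Ptprm, with 15, and the oxidoreductase gene Wwox, with 14, did not pass the test (edgeR adjusted p = 0.3 and 0.28).

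Members also lay near markers of other cell types, whose summed RNA was lower in the sorted cells than in lysate. Members were near 8 of 16 neuronal markers, 3 of 12 of astrocytes and 6 of 12 of oligodendrocytes. They were near 3 of 8 of oligodendrocyte precursors and 9 of 14 of endothelium and mural cells. Of all 23674 genes with a RefSeq body, tested or not, 7424 had a member. The neuronal sum was 0.928 to 2.31 CPM at 7 d and 4.91 to 45.9 CPM ex vivo, against 16962 to 18473 CPM in lysate, and Slc17a6 was at 0 in all ex vivo libraries. The astrocyte sum was 9.51 to 13 CPM at 7 d and 173 to 413 CPM ex vivo, most of which was the glutamate transporter gene Slc1a3 (149 to 230 CPM ex vivo). The oligodendrocyte sum was 47.5 to 71.6 CPM at 7 d and 88.5 to 225 CPM ex vivo, and Mog, Mobp, Opalin, Ermn and Sox10 were at 0 in all 7 d libraries. Ex vivo replicate 3 was the highest ex vivo library in all 3 sums. The endothelial and mural sum was 16.5 to 44.7 CPM at 7 d and 49.7 to 64.4 CPM ex vivo, against 363 to 607 CPM in lysate, and the tight junction gene Cldn5 was at 0 in all ex vivo and 7 d libraries. The ex vivo median of this sum was 12.3% of that in lysate, against 3.06% for astrocytes, 1.82% for oligodendrocytes and 0.0762% for neurons. Ex vivo H3K27ac was at 1 of 7 members near Celf4, a neuronal RNA-binding protein gene, at 2 of 6 near Slc1a3 and at 2 of 4 near Mbp, a myelin protein gene.

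Among markers of other blood and border cells, members were near 4 of 9 genes of border macrophages and 5 of 12 of monocytes and neutrophils. For lymphocytes it was 2 of 11, beside the same 7424 of 23674 genes. The monocyte and neutrophil sum was 5.21 to 9.38 CPM at 7 d and 11 to 302 CPM ex vivo, and the border macrophage sum 3781 to 8317 CPM at 7 d and 1465 to 2371 CPM ex vivo. The lymphocyte sum was 0.455 to 2.27 CPM at 7 d and 9.07 to 22.5 CPM ex vivo. The part of such cells in the ex vivo ATAC list was not tested.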

How the data were processed

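The authors deposited whole-number read counts per gene symbol and a TPM table for RNA, and peak intervals for chromatin. Per the file headers, HOMER called each peak list on 1 pooled tag directory, ATAC without input and the others against input. The builds mm10 and hg38 and the tools bedtools, Bowtie2, HOMER, limma, STAR and R 3.3.1 are listed, with no role given, in the submitters' processing notes. Whether ATAC reads were shifted is not stated in these sources. Input libraries were not used here. For counts, edgeR 4.0.16 was run in R 4.3.3 (TMM, filterByExpr, robust quasi-likelihood test, Benjamini-Hochberg adjustment over all genes). All 17 microglial libraries entered 1 model, and the 9 ex vivo and lysate libraries another. Values after ± are standard errors of log2 changes. The levels of single libraries are counts scaled to total counts. Alternatives used DESeq2 1.42.0 and limma 3.58.1 on log2 of the deposited TPM plus 1. Overlaps, distances and motifs were computed in Python 3.11.15 with pandas 2.3.3, numpy 2.4.6 and scipy 1.17.1, and figures with matplotlib 3.10.9. RefSeq names matched 23675 of 24537 symbols, and promoter windows were present for 17601. The fit was tested on simulated counts with known changes. Antisense and overlapping genes, and genes with near-identical copies, are uncertain, since the counting's use of strand is not given.

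Members and lists were chosen with earlier results of these data known. Named genes are the 10 with most members, the 8 largest falls and 6 largest rises among genes with at least 2 members and no overlap between libraries, up to 4 of each list with most members, and the 5 largest falls and 3 largest rises among genes with a member at the promoter, with at least 20 CPM in the higher group for falls and rises and without unnamed gene models. A gene that this rule names is not reported here. The strong unmarked members and the regions with most members were chosen after their values were seen.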

Additional observations from a re-analysis of the deposited data

Results flagged for a closer look

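Of 180 groups of 4 or 5 libraries examined for genes near members, 10 had 1 library far from the others. Chance alone flags about 1 group in 20, which is close to the share seen. In ex vivo replicate 3, 4 markers of other brain cells stood far above the other ex vivo libraries. They were Mbp, a myelin protein gene, at 92.9 CPM against 4.64 to 21.7 CPM, Gja1, an astrocyte connexin gene, at 4.57 CPM against 0.187 to 0.995 CPM, Fgfr3 at 3.01 CPM against 0.265 to 0.825 CPM and Olig1, an oligodendrocyte lineage factor gene, at 1.64 CPM against 0.0573 to 0.375 CPM. In 7 d replicate 3, Crybb1 stood at 1.15 CPM against 0.161 to 0.366 CPM in the other 7 d libraries, and Gprasp2 at 1.11 CPM against 0.12 to 0.402 CPM. In lysate replicate 3, Sparc stood at 282 CPM against 170 to 189 CPM, Pard3b at 7.34 CPM against 3.55 to 4.18 CPM and Cd163, a scavenger receptor gene of border macrophages, at 2.50 CPM against 1.26 to 1.44 CPM. In lysate replicate 4, Mef2c stood at 907 CPM against 641 to 676 CPM.

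A pair of genes near members moved in opposite directions at 24 h and 7 d relative to ex vivo. Itgav changed by -0.70 at 24 h and 0.66 at 7 d, a difference of 1.37 ± 0.18 (edgeR adjusted p = 9.8e-06). Arhgap24 changed by -1.21 at 24 h and 1.53 at 7 d, a difference of 2.75 ± 0.31 (edgeR adjusted p = 2.1e-06).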

How the results depend on the processing

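Removing a peak only at 100 bp of overlap left 16614 members, and removing it for a neighbour within 500 bp left 9782. Requiring a mark over 50% of the peak gave 35.9% for H3K4me2, 23.0% for ex vivo H3K27ac and 16.3% for 7 d H3K27ac. Extending mark peaks by 1 kb gave 44.3%, 27.6% and 22.0%, and isolated members alone gave 22.0%, 10.6% and 5.51%. The share near a start was 10.9% within 500 bp, 18.1% within 2 kb and 7.85% for isolated members. With acetylated members alone, 44.1% of genes were lower and 31.5% higher at 7 d. Genes whose member lost H3K27ac were lower in 61.3% and higher in 17.4% for isolated members, and in 51.2% and 20.5% without an ex vivo-only PU.1 peak; both settings were chosen after seeing the data. With TGFβ, the share of lower genes was 5.45% without a filter on low counts, 4.13% without TGFβ replicate 1 and 3.57% without replicate 2.

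Leaving out 1 library at a time gave, for lower genes, 37.0% to 38.5% at 7 d, 29.5% to 37.4% at 6 h, 34.2% to 38.0% at 24 h, 3.57% to 8.59% with TGFβ, 43.0% to 47.1% in ex vivo microglia against lysate and 55.5% to 57.4% for genes whose member lost H3K27ac. For higher genes it gave 32.5% to 34.8%, 28.3% to 34.4%, 26.8% to 30.2%, 8.62% to 13.5%, 37.8% to 40.6% and 18.9% to 20.4% in the same order. With a replicate block, 37.0% of members' genes were lower and 33.7% higher at 7 d, and 56.5% and 18.9% where H3K27ac was lost. Deviations of same-numbered 7 d and ex vivo libraries had correlations of -0.079, -0.069, 0.245, 0.05 and 0.08. With 5 libraries per group and no reference value, these cannot settle whether the numbers pair the samples. Of 972 values of 66 named genes under alternatives, 928 kept their call, 41 lost it, 3 gained it and none changed direction. The block lost Ccr2, F13a1, Fbxl17, Mbp, Snd1 and Tcf4, and leaving out ex vivo replicate 3 lost F13a1, Fgfr3, Fmnl2, Klrb1c and Mbp and gained Mrc1. The pooled peak lists limit every share of peaks, since none has a replicate.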
